A study of Mus musculus with 14 samples.

Results

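All stroke libraries were compared jointly with sham, to ask which genes stood on the same side of sham in every library made after stroke. The members were libraries, chosen by their labels: the 12 columns of the raw count matrix whose names begin with D, which are the stroke libraries, and the 2 sham columns, or 14 of the 14 libraries in the series. The stroke groups were sampled at 1, 3, 7, 21, 60 and 90 days, with 2 libraries at each time. Stroke mice had the distal middle cerebral artery tied off for good, together with 7 min of closure of both common carotid arteries. Sham mice received the lesion of the skull surface alone. All mice were C57BL/6 and 8 to 10 weeks old, no genetic modification is named in the labels, and all libraries were made from cells of the cerebral cortex sorted by fluorescence (FACS) as microglia. Not given in the sources used here are the surface markers of the sort, the time at which sham mice were sampled and the number of mice behind a library. The labels do not state that the replicates of a group are different animals, so the p-values measure only the spread between these libraries, which may be technical.

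Microglia are the resident macrophages of the brain. In the healthy cortex they survey their surroundings with purinergic and chemokine receptors and carry a homeostatic set of transcripts that other leukocytes lack, among them Tmem119, P2ry12, Sall1 and Fcrls. After injury or around dying cells they take up debris through receptors such as Trem2 and Mertk, degrade it in lysosomes, export the cholesterol they cannot break down, and release complement, cytokines and chemokines. A stroke also brings blood leukocytes, chiefly neutrophils, monocytes and later lymphocytes, into the injured cortex.

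Each gene was measured as a read count per library and is given here as CPM, the count per 1000000 counts of the library size scaled by edgeR's trimmed mean of M-values (TMM). For every stroke library the log2 level of the sham library with the same replicate number was subtracted, which gave 12 differences per gene. A gene is said to have risen or fallen where edgeR's quasi-likelihood test of the mean of the 6 stroke times against sham, with replicate number as a block, gave a Benjamini-Hochberg adjusted p under 0.05 over all genes tested. A same-direction gene passed that test and also had 12 differences of 1 sign. Fold changes are on the log2 scale as stroke minus sham, from the fit of 12 stroke and 2 sham libraries. The standard error (SE) after ± was worked back from that test, as the fold change divided by the square root of its F statistic. Library totals lay between 15254983 and 28758420 counts in replicate 1 and between 100625099 and 191692779 in replicate 2, so that low genes were measured less precisely in replicate 1.

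The marker genes of cell types were examined first, because both sham libraries stood apart from the stroke libraries in them. The 10 genes that define microglia summed to between 1080 and 18272 CPM in the 12 stroke libraries, with a median of 4199, against 650 CPM in sham 1 and 515 CPM in sham 2. All 12 stroke libraries lay above both sham libraries, and none of the 10 genes was at 0 in any library. Transcripts of the 15 measured neutrophil markers summed to between 348 and 7530 CPM after stroke, with a median of 1487, against 20833 and 39844 CPM in the sham libraries. All 12 stroke libraries lay below both. The 18 monocyte markers summed to between 1348 and 13321 CPM after stroke, with a median of 2580, against 10455 and 22774 CPM in the sham libraries, and 11 of 12 stroke libraries lay below both. The sham libraries, labelled as sorted microglia, were thus low in microglial and high in neutrophil and monocyte transcripts beside the libraries made after stroke. In bulk libraries, fewer cells of a type and less RNA per cell cannot be told apart, and this holds for every gene below. Among the stroke libraries, day 1 replicate 2 and day 21 replicate 1 held the most neutrophil and monocyte transcripts together, so each count was also made without these libraries, a choice made after the data were seen. The part of these cell types in the gene differences that follow was not tested.

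**Figure D1:**
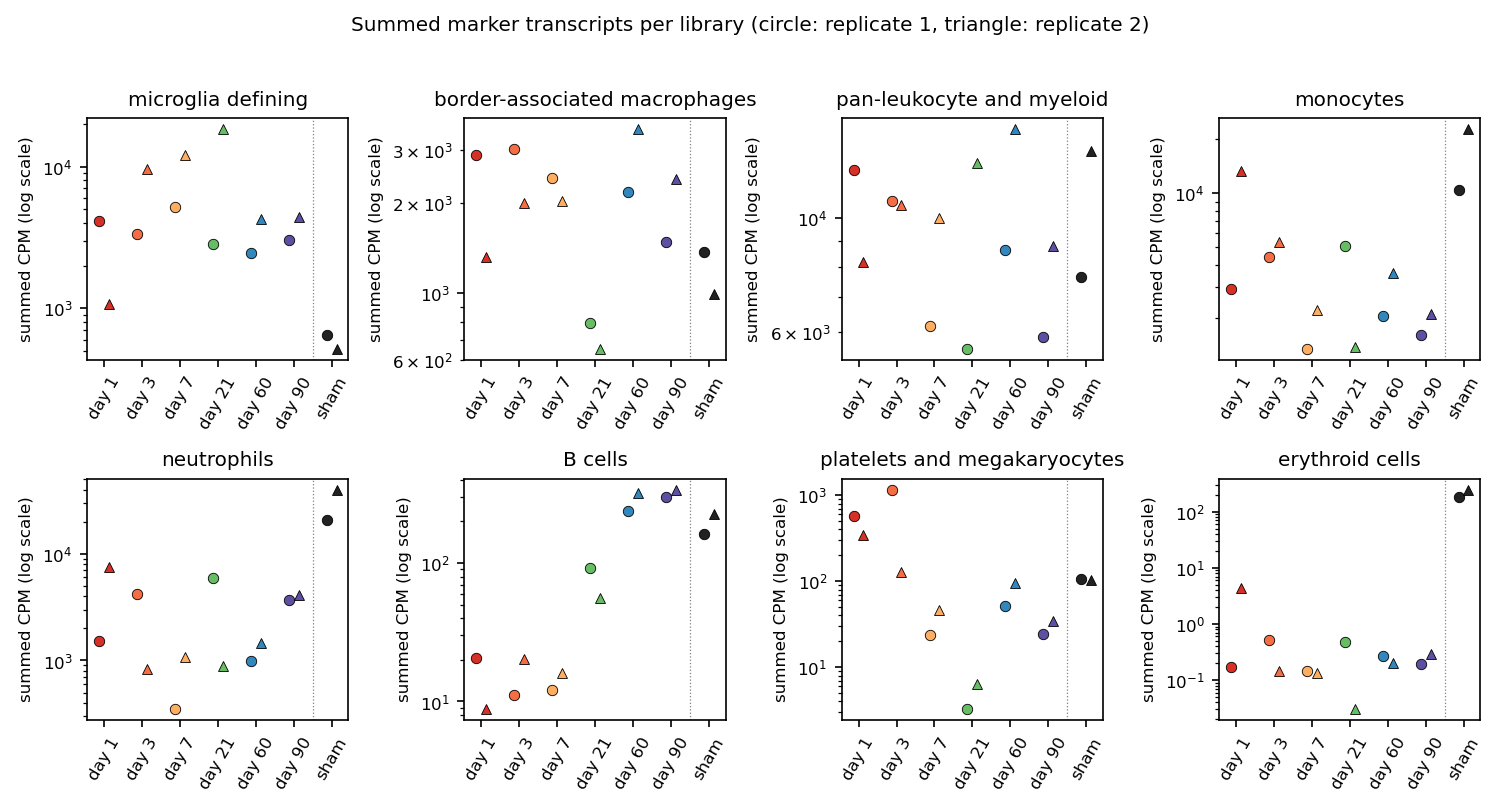
Summed level (CPM, log axis) of 8 cell type marker lists in each of the 12 stroke libraries, in order of time, and in the 2 sham libraries at the right of each panel. Microglia-defining genes lie above both sham libraries in 12 of 12 stroke libraries and neutrophil markers below both in 12 of 12.

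Of 13861 genes tested, 1451 rose in the same direction in all 12 stroke libraries (10.5% of genes tested) and 1733 fell (12.5%). The higher genes had a median fold change of 2.28 log2 and took between 13.8% and 39.5% of the CPM of a stroke library, with a median of 30.6%, against 3.78% and 3.81% in the sham libraries. The lower genes had a median of -1.71 log2 and took between 7.21% and 19.6% after stroke, with a median of 10.1%, against 40.9% and 33.9% in sham. Over all genes tested the median fold change was 0.09 log2. The test alone called 1687 genes higher (12.2%) and 2081 lower (15%), and 584 of these called genes had at least 1 difference of the other sign. The sign alone, with no test, was shared by 12 of 12 differences in 2051 higher and 2195 lower genes, together 30.6% of genes tested, and 1062 of them were not called. Differences of the same replicate number share a sham library, so their signs are not independent. Agreement in 12 of 12 is thus not 12 separate results. The levels of stroke and sham libraries did not overlap in 1186 of the 1451 higher and 1343 of the 1733 lower genes, where 21.2% of all genes tested did not overlap. Same-direction genes were selected by their differences from sham. Their lack of overlap, median fold changes and CPM shares thus follow in part from the selection. In 631 higher and 518 lower genes every difference was at least 1 log2 unit.

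**Figure D2:**
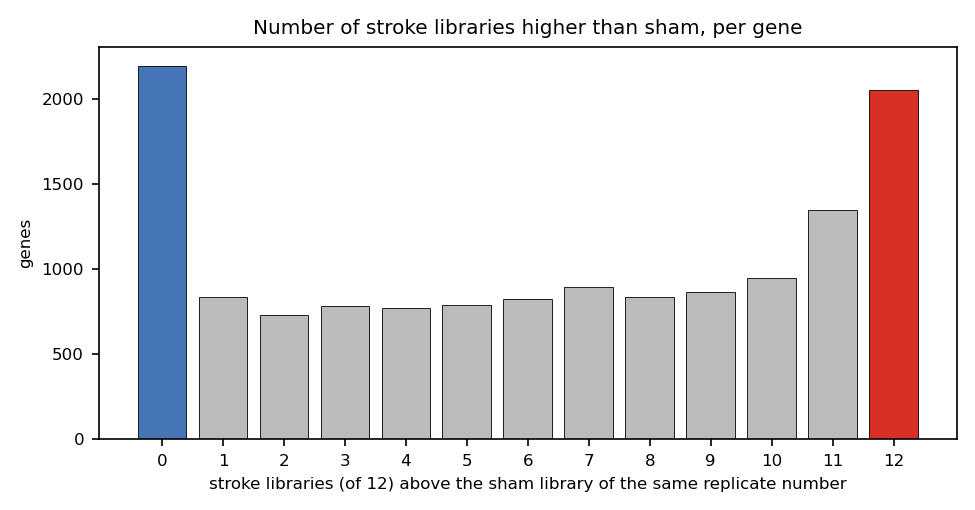
Number of genes (vertical axis) by how many of their 12 stroke minus sham differences were above 0 (horizontal axis), for all 13861 genes tested, whether called or not. Blue marks genes below sham in every stroke library and red marks genes above sham in every one. The largest bars are at 0 differences (2195 genes) and at 12 differences (2051 genes). Differences of the same replicate number share a sham library, so the signs are not independent.

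Each difference used 1 sham library, that of its own replicate number, and the calls leaned on having both sham libraries. Where libraries were left out, same-direction refers to the differences that remained. Without a sham library, these were the differences of the other replicate number only. Without sham 1, 964 same-direction genes were called, and without sham 2, 946 were called; in these fits the remaining sham library is assumed to vary like the stroke groups. With either sham library alone, 514 genes were called in the same direction (227 higher and 287 lower), or 3.71% of genes tested. For any other same-direction gene the call was lost without at least 1 of the sham libraries. In what follows, being called with either sham library alone is stated of same-direction genes. Without day 1 replicate 2 and day 21 replicate 1, 4648 same-direction genes were called. Of 1347 genes higher in 11 of 12 differences, the exception was most often day 1 replicate 2 (41.6%), followed by day 21 replicate 2 (24%).

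Most microglia-defining genes were higher after stroke. Of 33 measured genes of the homeostatic list, 17 rose (background 12.2%), 2 fell (background 15%) and 14 did not pass, with a median of 2.15 log2 against 0.09 over all genes. These shares of all genes tested are the background for every list count below that uses all libraries. Of the 10 defining genes 9 rose, among them Fcrls, Olfml3, Tmem119, Siglech, Sall1, Gpr34, Slc2a5 and P2ry12, and Cx3cr1 did not pass. Fcrls, a surface scavenger receptor of microglia, ranged from 206 to 1909 CPM after stroke, with a median of 675, against 10.4 and 4.03 CPM in sham. Every stroke library lay far above both sham libraries, and the fold change was 6.59 ± 1.05 log2 (SE, edgeR adjusted p = 0.00196). Tmem119, a membrane protein used to mark microglia, ranged from 41.6 to 350.2 CPM, with a median of 208, against 16.9 and 2.48 CPM in sham (4.74 ± 0.84 log2, edgeR adjusted p = 0.00332). The groups did not overlap, but without sham 2 its adjusted p was 0.0507. Sall1, the transcription factor that holds microglial identity, was scarce, at 1.08 to 46.7 CPM with a median of 3.79 after stroke, against 0.42 and 0.21 CPM in sham (4.18 ± 0.87 log2, edgeR adjusted p = 0.00666). No stroke library of Sall1 reached down to sham, and it lost the call without sham 2 (edgeR adjusted p = 0.103).

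P2ry12, the ADP receptor that steers microglial processes, overlapped: 22.9 to 358 CPM after stroke, with a median of 132, against 47.5 and 17.6 CPM in sham (2.15 ± 0.68 log2, edgeR adjusted p = 0.0387). Its adjusted p was 0.0968 without sham 1 and 0.283 without sham 2, and up to 0.0653 without a stroke library. Cx3cr1, the fractalkine receptor, stood at 53.8 to 742 CPM with a median of 297 after stroke, against 392 and 149 CPM in sham (0.34 ± 0.50 log2, edgeR adjusted p = 0.659). Csf1r, the receptor on which microglial survival depends, stood at 682 to 6498 CPM with a median of 1777, against 1687 and 1235 CPM in sham (0.31 ± 0.49 log2, edgeR adjusted p = 0.692), and its sign turned without sham 2 (-0.32 log2). Neither receptor differed beyond the spread of the libraries. Ifngr1 and Selplg fell. Selplg, a selectin ligand also carried by blood leukocytes, had 331 to 1508 CPM with a median of 562 after stroke, against 2561 and 1489 CPM in sham (-1.78 ± 0.28 log2, edgeR adjusted p = 0.00182, and 0.0562 without sham 1). The genes of this list that remained called with either sham library alone were all higher, and included Fcrls, Olfml3, Sparc, Mertk, Gas6 and Fscn1.

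**Figure D3:**
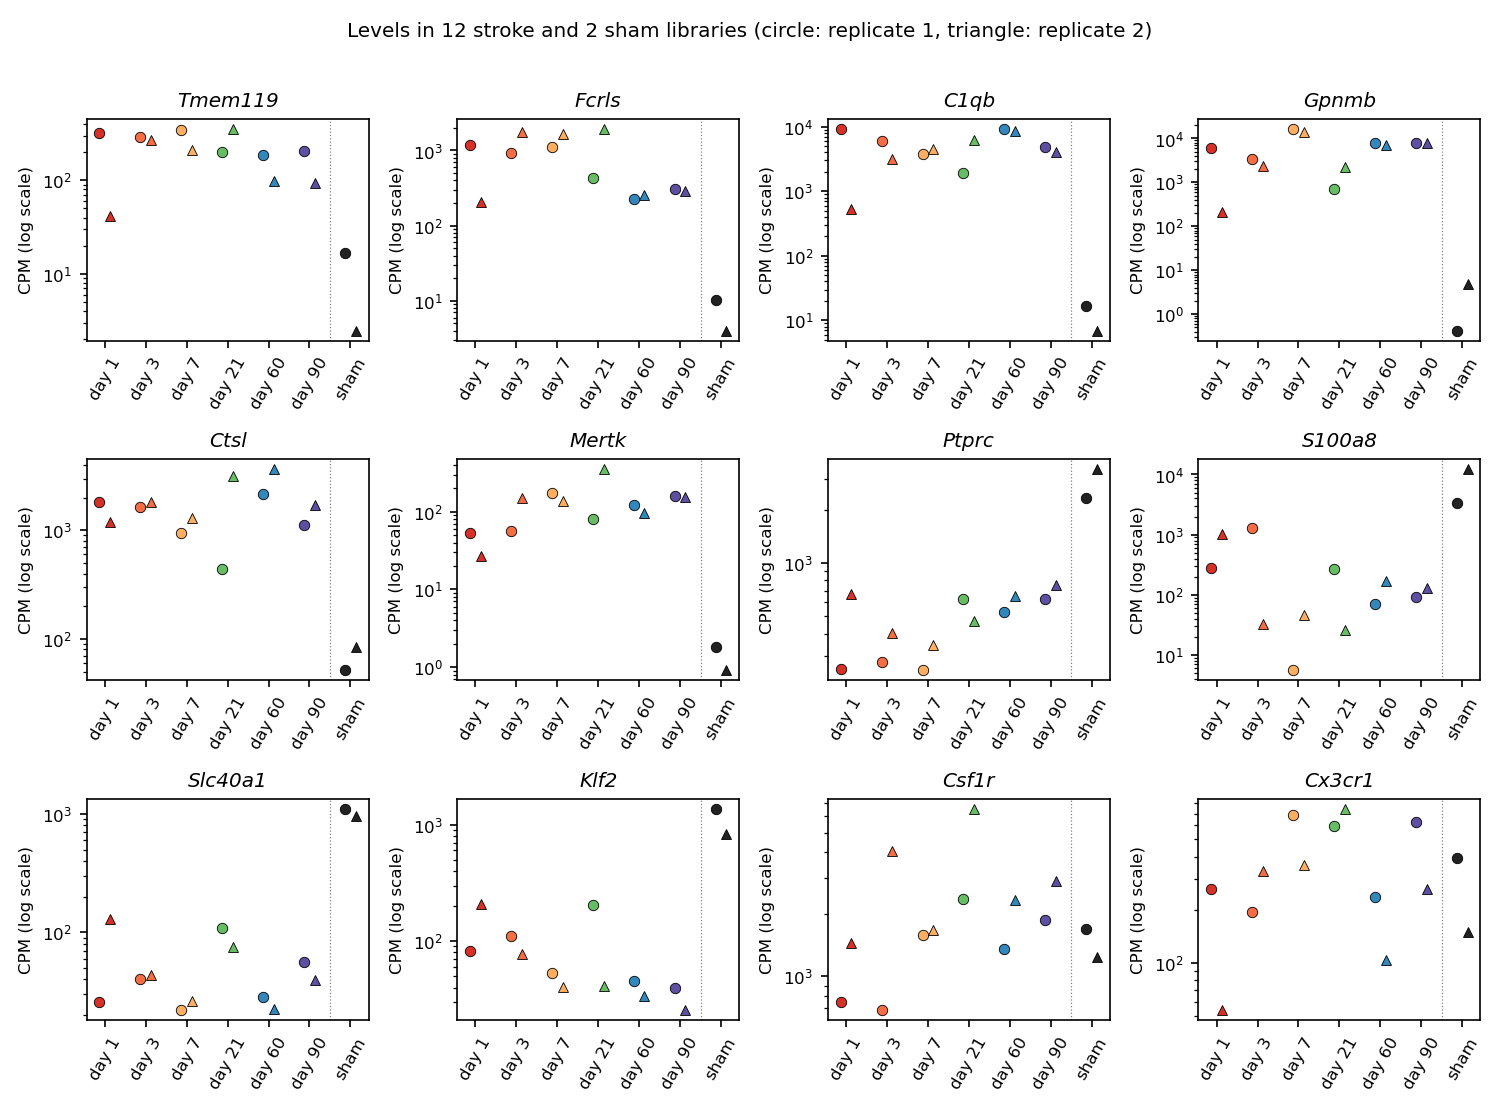
Level (CPM, log axis) of 12 genes in each stroke library, by time, and in the 2 sham libraries at the right of each panel. Fcrls, Tmem119, C1qb, Gpnmb, Ctsl and Mertk lie above both sham libraries in all stroke libraries, Ptprc, S100a8, Slc40a1 and Klf2 below both, and Csf1r and Cx3cr1 overlap with sham.

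Most measured genes known from disease-associated microglia, the state described around amyloid plaques and dying neurons in mice, also rose. Of 33 measured, 20 rose, 3 fell and 10 did not pass (median 2.52 log2), and 19 of the 20 rose in all 12 libraries, Lpl being the exception. Over all genes, 1451 of the 1687 called higher and 1733 of the 2081 called lower were same-direction genes, the background for such counts below. Gpnmb, a membrane glycoprotein of phagocytes with loaded lysosomes, ranged from 207 to 16110 CPM, with a median of 6540, against 0.42 and 4.92 CPM in sham. Its lowest stroke library, day 1 replicate 2, was still well above sham, and the fold change was 10.77 ± 1.84 log2 (SE, edgeR adjusted p = 0.00277). Spp1, which encodes osteopontin, ranged from 1072 to 75150 CPM, with a median of 5629, against 10.1 and 71.0 CPM in sham (7.84 ± 1.29 log2, edgeR adjusted p = 0.00232). Igf1, a trophic factor, ranged from 3.26 to 403 CPM, with a median of 177, against 0.24 and 0.67 CPM in sham (7.89 ± 1.32 log2, edgeR adjusted p = 0.00253). None of these genes overlapped with sham, although Igf1 in day 1 replicate 2 was near it. Apoe, the main lipid carrier of the brain, ranged from 2335 to 109000 CPM, with a median of 36590, against 1550 and 1836 CPM in sham (4.60 ± 1.23 log2, edgeR adjusted p = 0.0202). Trem2, the lipid-sensing receptor that controls this state in mice, ranged from 185 to 3377 CPM, with a median of 1156, against 17.2 and 27.9 CPM in sham (5.83 ± 1.13 log2, edgeR adjusted p = 0.00499). Both stayed above sham in every library, and both lost the call without a sham library, with adjusted p of 0.158 and 0.138 for Apoe and 0.0656 and 0.0684 for Trem2 without sham 1 and without sham 2. Spp1, Gpnmb, Ctsl, Igf1, Cadm1 and Ch25h remained called with either sham library alone.

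The 3 members that fell were Ccl6, Cd52 and Clec7a, all same-direction genes. Ccl6, a chemokine of myeloid cells, had 85.9 to 2258 CPM with a median of 840.1 after stroke, against 3435 and 6485 CPM in sham (-2.81 ± 0.45 log2, edgeR adjusted p = 0.00211, and 0.0850 without sham 2). Cd52, a small surface glycoprotein of leukocytes, had 79.7 to 588 CPM with a median of 178, against 693 and 1769 CPM in sham (-2.53 ± 0.47 log2, edgeR adjusted p = 0.0041, and 0.159 without sham 2). Neither overlapped with sham. The neutrophil marker sum was below both sham libraries in 12 of 12 stroke libraries and the monocyte sum in 11. Any link with the falls of Ccl6 and Cd52 was not tested.

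Lysosomal genes rose widely. Of 48 measured hydrolases and membrane genes, 28 rose, 27 of them in all 12 libraries, 1 fell and 19 did not pass, with a median of 1.63 log2. The promoters of 3 of the risen proteases that carry CACGTG are shown because this hexamer is the core of the element through which TFEB-family factors act on lysosomal genes. Each is RefSeq sequence of GRCm38.p6 from 250 bases before to 50 bases after the annotated start, read 5′ to 3′ on the minus strand, with CACGTG in capitals. They span chr7:142387778-142388077 for Ctsd, chr13:64370471-64370770 for Ctsl and chr12:102439043-102439342 for Lgmn.
Ctsd: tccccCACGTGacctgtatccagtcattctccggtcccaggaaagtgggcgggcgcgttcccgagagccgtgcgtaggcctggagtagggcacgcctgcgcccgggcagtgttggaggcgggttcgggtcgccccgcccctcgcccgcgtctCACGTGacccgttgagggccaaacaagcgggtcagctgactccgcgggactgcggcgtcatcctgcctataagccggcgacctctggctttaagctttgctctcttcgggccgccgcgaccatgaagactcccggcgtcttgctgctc
Ctsl: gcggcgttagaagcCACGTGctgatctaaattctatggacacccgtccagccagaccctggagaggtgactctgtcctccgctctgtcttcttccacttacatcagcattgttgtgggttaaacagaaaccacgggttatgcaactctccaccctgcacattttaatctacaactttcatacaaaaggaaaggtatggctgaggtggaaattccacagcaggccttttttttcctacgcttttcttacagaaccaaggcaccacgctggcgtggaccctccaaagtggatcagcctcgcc
Lgmn: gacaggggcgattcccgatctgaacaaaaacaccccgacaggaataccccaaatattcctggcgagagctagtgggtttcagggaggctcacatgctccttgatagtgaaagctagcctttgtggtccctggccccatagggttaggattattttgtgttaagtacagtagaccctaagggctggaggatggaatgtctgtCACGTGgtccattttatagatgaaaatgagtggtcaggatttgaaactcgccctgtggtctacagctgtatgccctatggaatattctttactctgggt
The hexamer is its own reverse complement, so both strands read alike. It begins 245 and 98 bases before the start of Ctsd, 236 bases before that of Ctsl and 49 bases before that of Lgmn, and promoters of the same length hold it in 8.09% of all 27025 genes of the RefSeq table. It is held by 11.4% of the 10457 tested genes that matched the table and by 15.2% of the 1097 matched higher same-direction genes. Only 75.4% and 75.6% of the genes of these sets matched, so no comparison between the sets is drawn, and none was tested. A second annotated Lgmn promoter, chr12:102439679-102439978, does not hold it. A match describes these letters and is not evidence of a bound site.

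Ctsl, a cysteine protease of the lysosome, ranged from 442 to 3661 CPM, with a median of 1668, against 51.2 and 84.5 CPM in sham (4.63 ± 0.70 log2, edgeR adjusted p = 0.0016). Lgmn, the asparaginyl endopeptidase legumain, ranged from 604 to 4563 CPM, with a median of 2124, against 86.3 and 71.8 CPM in sham (4.67 ± 0.72 log2, edgeR adjusted p = 0.00171). Both stood above sham by a wide margin in every stroke library, and with Gla, the alpha-galactosidase, they were the lysosomal genes called with either sham library alone. Ctsd, the aspartic protease cathepsin D, ranged from 7851 to 54920 CPM, with a median of 22010, against 1906 and 2038 CPM in sham (3.65 ± 0.83 log2, edgeR adjusted p = 0.01005). Ctsb, a cysteine protease, ranged from 5280 to 39990 CPM, with a median of 24900, against 1888 and 2250 CPM in sham (3.4 ± 0.73 log2, edgeR adjusted p = 0.00753). Neither overlapped with sham, yet without sham 1 and without sham 2 the adjusted p was 0.0912 and 0.110 for Ctsd and 0.0853 and 0.0865 for Ctsb. Ctsk, a collagen-degrading cathepsin, varied most within the list, from 1.44 to 488 CPM with a median of 31.5, against 0.79 and 0.90 CPM in sham (5.78 ± 1.32 log2, edgeR adjusted p = 0.0101). Ids, which encodes iduronate 2-sulfatase, was the member that fell, with 20.5 to 83.1 CPM and a median of 30.8 after stroke, against 144 and 53.9 CPM in sham (-1.35 ± 0.37 log2, edgeR adjusted p = 0.0226). Its levels overlapped, and it lost the call both without sham 1 (-0.94 log2) and without sham 2 (-1.66 log2). Exonic bases of Ctsd overlap Gm49369 on the same strand over 31.5% of their length, and those of Ctsl overlap Gm47123 on the opposite strand over 28.2%. Reads of the Ctsl overlap cannot be told apart where counting ignores strand. Those of the Ctsd overlap cannot be told apart by strand at all.

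The proton pump that acidifies lysosomes did not move as a group: of 16 subunits of the V-ATPase, 3 rose, 1 fell and 12 did not pass (median 0.23 log2). Of all genes, 12.2% rose and 15% fell. Atp6v0d2, a subunit of macrophages and osteoclasts, ranged from 0.20 to 976 CPM, with a median of 131, against 0 and 0.07 CPM in sham. It was near sham in day 1 replicate 2, and it rose by 10.05 ± 1.72 log2 (SE, edgeR adjusted p = 0.0028). Atp6v1c1 rose by 1.88 ± 0.45 log2 (edgeR adjusted p = 0.0132) with overlapping levels, at 127 to 623 CPM after stroke against 65.5 and 148 CPM in sham. Atp6v1b2 had 277 to 566 CPM after stroke, against 654 and 724 CPM in sham (-0.82 ± 0.24 log2, edgeR adjusted p = 0.0275, and up to 0.0764 without a stroke library).

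Genes of lipid transport and storage and genes of cholesterol synthesis were read side by side, with no test between them. Of 27 transport and storage genes, 14 rose and 2 fell (median 1.51 log2), and 8 and 1 did so in all 12 libraries. Over all genes, 1451 of the 1687 called higher and 1733 of the 2081 called lower did so. Abca1, which loads cholesterol onto lipoproteins, ranged from 146 to 350.4 CPM, with a median of 214, against 11.5 and 4.12 CPM in sham. The stroke libraries were close together and far above sham, and Abca1 rose by 4.98 ± 0.55 log2 (SE, edgeR adjusted p = 0.000416), a call it kept with either sham library alone, as did Plin2, a lipid droplet coat protein, and Ch25h, which makes 25-hydroxycholesterol. Of 21 synthesis genes, none rose, Sc5d and Sqle fell and 19 did not pass (median -0.48 log2). Without day 1 replicate 2 and day 21 replicate 1, the synthesis list had 1 gene called higher and 10 lower. In that fit 2723 of all 13973 genes tested were called higher and 2976 lower, against 1687 and 2081 of 13861 with all libraries. Sc5d, a sterol desaturase late in the pathway, had 10.1 to 42.8 CPM with a median of 17.8 after stroke, against 104 and 96 CPM in sham (-2.41 ± 0.30 log2, edgeR adjusted p = 0.000675). Its groups did not overlap and the call held with either sham library alone. Scarb1, an uptake receptor for high-density lipoprotein, fell: it had 59.4 to 157 CPM after stroke, against 214 and 194 CPM in sham (-1.15 ± 0.29 log2, edgeR adjusted p = 0.0151). It lost the call both without sham 1 (-0.83 log2) and without sham 2 (-1.39 log2).

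The recognition subunit of the classical complement pathway was among the most raised. Of 21 complement genes, 11 rose, 4 fell and 6 did not pass (median 2.44 log2). C1qb ranged from 523 to 9102 CPM, with a median of 4726, against 16.4 and 6.95 CPM in sham (8.81 ± 1.32 log2, edgeR adjusted p = 0.00155). C1qa and C1qc, the other chains of C1q, rose by 8.66 ± 1.30 and 8.43 ± 1.31 log2 (edgeR adjusted p = 0.00155 and 0.00179). All 3 chains stood above sham in every stroke library, lowest in day 1 replicate 2. C3ar1, the receptor for the C3a fragment, ranged from 148 to 937 CPM, with a median of 465, against 6.0 and 2.19 CPM in sham (6.97 ± 0.80 log2, edgeR adjusted p = 0.000478). The call held with either sham library alone for C1qa, C1qb, C1qc, C2, C3ar1 and Cd93. C3 itself, the central component, fell: it had 26.6 to 266 CPM with a median of 80.4 after stroke, against 400.3 and 288 CPM in sham (-1.88 ± 0.50 log2, edgeR adjusted p = 0.0205). The groups did not overlap, although C3 lost the call both without sham 1 (-1.17 log2) and without sham 2 (-2.39 log2). C5ar1, C5ar2 and Cd55, a brake on complement convertases, also fell. C1q genes are defining transcripts of tissue macrophages, and in the same libraries the microglia-defining sum was above sham. A link between the 2 was not tested.

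Among receptors and bridging proteins for engulfment more genes rose than fell: of 27 measured, 12 rose, 2 fell and 13 did not pass (median 1.40 log2). Gas6, the bridge between phosphatidylserine and the TAM receptors, ranged from 30.3 to 421 CPM, with a median of 199, against 0.42 and 0.96 CPM in sham (8.17 ± 1.13 log2, edgeR adjusted p = 0.00112). Mertk, a TAM receptor for dying cells, ranged from 26.7 to 354 CPM, with a median of 129, against 1.82 and 0.90 CPM in sham (6.45 ± 0.84 log2, edgeR adjusted p = 0.00084). Ligand and receptor were both above sham in 12 of 12 libraries. Stab1, a scavenger receptor, ranged from 64.2 to 811 CPM, with a median of 253, against 7.15 and 6.28 CPM in sham (5.15 ± 0.60 log2, edgeR adjusted p = 0.000486). Itgb5, the integrin beta chain that binds Mfge8-coated cells, ranged from 504 to 2462 CPM, with a median of 772, against 89.5 and 89.3 CPM in sham (3.47 ± 0.51 log2, edgeR adjusted p = 0.00148). With Mfge8 and Mrc1, these genes were called with either sham library alone. Axl and Trem2 rose as well. Itgb3 and Cd300lf fell: Itgb3, an integrin chain abundant on platelets, had 0.51 to 6.57 CPM with a median of 2.24 after stroke, against 24.7 and 7.26 CPM in sham (-2.71 ± 0.53 log2, edgeR adjusted p = 0.00494, and 0.190 without sham 1). Of the 6 Fc gamma receptor genes, Fcgr1 and Fcgr2b rose and 4 did not pass.

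Inflammatory cytokines split. Of 30 cytokines and NF-kB targets, 8 rose, 6 fell and 16 did not pass (median 0.24 log2). Of all genes, 12.2% rose and 15% fell. Il1a, the alarm cytokine released by damaged cells, ranged from 50.8 to 671 CPM, with a median of 113, against 1.21 and 1.07 CPM in sham (7.26 ± 0.93 log2, edgeR adjusted p = 0.000795). Tnf ranged from 68.9 to 1728 CPM, with a median of 432, against 33.9 and 21.9 CPM in sham (3.78 ± 0.58 log2, edgeR adjusted p = 0.00174). Both were above sham in all 12 libraries and called with either sham library alone, as were Il12b, a subunit of interleukin 12 and 23, and Cd83, an activation marker of antigen-presenting cells. Cd83 ranged from 391 to 2710 CPM, with a median of 1311, against 52.9 and 44.8 CPM in sham (4.80 ± 0.54 log2, edgeR adjusted p = 0.000428). Il1b, the inflammasome-processed partner of Il1a, went the other way. It ranged from 355 to 12350 CPM, with a median of 2498, against 5593 and 7790 CPM in sham, and 2 of 12 differences were above 0. Its mean fell by 1.43 ± 0.40 log2 (SE, edgeR adjusted p = 0.0233), a call lost without sham 1 (adjusted p = 0.124) and without sham 2 (0.217). Nlrp3, the inflammasome sensor, fell by 2.33 ± 0.44 log2 (edgeR adjusted p = 0.00464), with 6.72 to 157 CPM after stroke against 174 and 85.7 CPM in sham. Its levels overlapped, and the call was lost without sham 1 (adjusted p = 0.142). Il1b and Nlrp3 are strongly expressed in neutrophils and monocytes, whose marker sums were also lower after stroke. The part of those cells in these falls was not tested.

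Many chemokine transcripts rose while several receptors of blood leukocytes fell. Of 22 chemokines, 11 rose, 1 fell and 10 did not pass (median 3.37 log2), all 11 in 12 of 12 libraries. Cxcl16, a membrane-bound ligand for lymphocytes, ranged from 227 to 1376 CPM, with a median of 583, against 3.58 and 4.93 CPM in sham (6.96 ± 0.59 log2, edgeR adjusted p = 0.000132). Ccl12, a monocyte attractant, ranged from 4.7 to 96.2 CPM, with a median of 35.6, against 0.12 and 0.32 CPM in sham (7.09 ± 0.98 log2, edgeR adjusted p = 0.00113). Neither came near sham in any stroke library. Ccl22 ranged from 5.17 to 126 CPM, with a median of 16.3, against 0 and 0.01 CPM in sham, where a single read was counted. Ccl8 had no read in either sham library and 0.39 to 175 CPM with a median of 6.98 after stroke. Its mean over the stroke libraries, not each library, was at least 932-fold above a floor of 3 counts over the sham group. With either sham library alone, Ccl7, Ccl12, Ccl22, Cxcl14, Cxcl16 and Cx3cl1 remained called. Of 16 chemokine receptors, 2 rose, 5 fell and 9 did not pass, where 12.2% of all genes rose and 15% fell. Ccr3, a receptor of eosinophils and basophils, had 0.27 to 11 CPM with a median of 2.52 after stroke, against 54.1 and 33.9 CPM in sham (-4.71 ± 0.34 log2, edgeR adjusted p = 6.83e-05). Cxcr2, the main neutrophil chemokine receptor, had 1.21 to 297 CPM with a median of 20.3, against 1375 and 914 CPM in sham (-4.98 ± 0.73 log2, edgeR adjusted p = 0.00137). Both receptors separated all stroke libraries from sham and kept the call with either sham library. Ccr2, the receptor of inflammatory monocytes, was lower in all 12 differences, at 21.9 to 891 CPM with a median of 241 against 959.6 and 565 CPM in sham, but did not pass (-1.62 ± 0.60 log2, edgeR adjusted p = 0.0688).

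Interferon-response genes were mostly lower after stroke. Of 38 measured, 1 rose, 23 fell and 14 did not pass (median -1.09 log2), and 13 of the 23 fell in all 12 libraries. Over all genes, 1733 of the 2081 called lower did so, a larger share. Cmpk2, an interferon-induced mitochondrial kinase, had 7.3 to 70.7 CPM with a median of 20.8 after stroke, against 159 and 103 CPM in sham (-2.47 ± 0.33 log2, edgeR adjusted p = 0.000947). Every stroke library lay below both sham libraries. Oasl2, Rsad2, Cmpk2 and Trim30a kept the call with either sham library alone. Oas3, an antiviral synthetase, fell by 2.38 ± 0.56 log2 (edgeR adjusted p = 0.0121), with 6.91 to 85.6 CPM after stroke against 153 and 65.9 CPM in sham, and its adjusted p was 0.373 without sham 1. Bst2, an antiviral membrane tether, was the member that rose, with 73.2 to 637 CPM and a median of 209 after stroke, against 40.1 and 81.0 CPM in sham (1.95 ± 0.65 log2, edgeR adjusted p = 0.0476). Its levels overlapped, and the call was lost both without sham 1 (1.71 log2) and without sham 2 (2.25 log2). Toll-like receptors and their adaptors gave 2 rises and 6 falls among 21 genes, where 12.2% of all genes rose and 15% fell. Myd88, the adaptor shared by most of these receptors, had 72.2 to 250.1 CPM with a median of 106 after stroke, against 489.5 and 458 CPM in sham (-2.01 ± 0.27 log2, edgeR adjusted p = 0.000908). With Tlr6 it kept the call with either sham library alone. Tlr1 and Tlr3 were the receptors that rose, and both lost the call without 1 sham library.

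Antigen presentation genes were grouped by class. Of 15 class II genes, 9 rose, 1 fell and 5 did not pass (median 1.68 log2). H2-Ab1, a class II beta chain, ranged from 999 to 30280 CPM, with a median of 4742, against 584 and 910.3 CPM in sham (3.00 ± 0.77 log2, edgeR adjusted p = 0.017). Cd74, the invariant chain, ranged from 4121 to 67820 CPM, with a median of 8716, against 2058 and 4120 CPM in sham (2.07 ± 0.64 log2, edgeR adjusted p = 0.0362). The lowest stroke library of both was day 21 replicate 2, which for Cd74 met the level of sham 2, and none of the 9 rises held with either sham library alone (H2-Ab1: edgeR adjusted p = 0.167 without sham 1 and 0.0946 without sham 2). The summed dendritic cell markers, cells rich in class II, were above both sham libraries in the same 12 stroke libraries, and their part was not tested. Of the 12 genes of that list, 6 are also in other lists. The 4 that rose were Ccl22, Itgax, Siglech, which is also microglia-defining, and Bst2, which is also in the interferon list. Cd80, a costimulatory ligand, had 4.47 to 23.1 CPM with a median of 9.83 after stroke, against 47.8 and 39.2 CPM in sham (-2.14 ± 0.33 log2, edgeR adjusted p = 0.00174), and kept its call with either library. Of 15 class I genes, 1 rose, 3 fell and 11 did not pass (median -0.31 log2), near the 12.2% and 15% of all genes. The rise was H2-M2, which had no read in sham and none in day 1 replicate 2. After stroke it had 0 to 105 CPM with a median of 1.8. On the mean of the stroke libraries, H2-M2 was at least 822-fold above the floor of 3 sham counts. Its call was lost without day 1 replicate 1 (edgeR adjusted p = 1), without sham 1 (0.0587) and without sham 2 (0.0945).

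Many genes of cell division were higher. Of 40 measured, 22 rose, 1 fell and 17 did not pass (median 2.18 log2), and 18 of the 22 rose in all 12 libraries. Over all genes, 1451 of the 1687 called higher did so. Cdk1, the mitotic kinase, ranged from 1.96 to 36.5 CPM, with a median of 13.1, against 0.24 and 0.62 CPM in sham (4.86 ± 0.89 log2, edgeR adjusted p = 0.00383, and 0.0559 without sham 1). Plk1, a kinase of the spindle, ranged from 0.78 to 37.9 CPM, with a median of 6.88, against 0.06 and 0.12 CPM in sham (5.96 ± 1.19 log2, edgeR adjusted p = 0.00562). The call of Plk1 was lost both without sham 1 (5.535 log2) and without sham 2 (7.27 log2). Replication licensing genes Mcm2, Mcm3, Mcm5, Mcm6 and Mcm7 rose as well. Kif23, a kinesin of the dividing cell's midbody, went against its list: it had 1.39 to 29.7 CPM with a median of 9.95 after stroke, against 128 and 143 CPM in sham (-3.89 ± 0.57 log2, edgeR adjusted p = 0.00136). It was below sham in every stroke library, and it was the only member of the list called with either sham library alone. Mki67, the proliferation marker, did not pass (0.67 log2, edgeR adjusted p = 0.291).

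Slc40a1, Gsr and Slc2a3 were lower in every stroke library. Slc40a1, which encodes ferroportin, the known iron exporter of cells, had 21.9 to 130.4 CPM with a median of 40 after stroke, against 1098 and 968 CPM in sham. No stroke library came near sham, and Slc40a1 fell by 4.51 ± 0.36 log2 (SE, edgeR adjusted p = 9.23e-05). Gsr, glutathione reductase, had 73.7 to 1646 CPM with a median of 218, against 3016 and 3575 CPM in sham (-3.57 ± 0.45 log2, edgeR adjusted p = 0.000729). Slc2a3, the neuronal and leukocyte glucose transporter GLUT3, had 4.51 to 102 CPM with a median of 12.2, against 1026 and 558 CPM in sham (-5.28 ± 0.70 log2, edgeR adjusted p = 0.000908). All 3 genes kept the call with either sham library alone, and none overlapped. Of 32 antioxidant, heme and iron genes, 7 rose and 6 fell (median 0.56 log2), where 12.2% of all genes rose and 15% fell. Srxn1, which restores oxidised peroxiredoxins, was called with either sham library alone, at 19.0 to 186 CPM with a median of 62.6 after stroke against 9.09 and 4.94 CPM in sham (3.13 ± 0.46 log2, edgeR adjusted p = 0.00139). Hmox1, the heme-degrading enzyme, ranged from 103 to 2080 CPM, with a median of 238, against 57.1 and 88.2 CPM in sham (2.24 ± 0.65 log2, edgeR adjusted p = 0.0286). Its call was lost both without sham 1 (1.84 log2) and without sham 2 (2.78 log2). Of 22 genes of glycolysis and hypoxia, 2 rose and 6 fell, where 12.2% and 15% of all genes did. Without day 1 replicate 2 and day 21 replicate 1, 4 rose and 10 fell, where 2723 and 2976 of all 13973 genes tested did.

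Among immediate early genes and Krüppel-like factors more genes fell than rose: of 24 measured, 4 rose, 12 fell and 8 did not pass (median -1.08 log2). Klf2, a factor that keeps leukocytes quiescent, had 25.5 to 207 CPM with a median of 49.2 after stroke, against 1357 and 833 CPM in sham (-3.98 ± 0.38 log2, edgeR adjusted p = 0.000214). Egr1 had 89.7 to 1387 CPM with a median of 581, against 3666 and 1734 CPM in sham (-2.35 ± 0.29 log2, edgeR adjusted p = 0.000592). Neither overlapped, and both kept the call with either sham library alone, as did Ier2 and Btg2. Nr4a2, Dusp2, Jun and Ier3 rose. Nr4a2, a nuclear receptor induced by activity, ranged from 8.18 to 44.5 CPM, with a median of 16.3, against 4.18 and 2.71 CPM in sham (2.46 ± 0.47 log2, edgeR adjusted p = 0.00478). The call of Nr4a2 was lost both without sham 1 (2.69 log2) and without sham 2 (2.275 log2).

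Growth factors rose or did not pass: of 19 tested, 10 rose, none fell and 9 did not pass (median 3.03 log2). Besides Igf1, Gdf15, a stress-induced hormone, ranged from 16.2 to 414 CPM, with a median of 82.7, against 1.33 and 0.56 CPM in sham (6.98 ± 0.96 log2, edgeR adjusted p = 0.00112). Pdgfa, a mitogen of oligodendrocyte precursors, ranged from 6.89 to 40.9 CPM, with a median of 22.1, against 0.42 and 0.39 CPM in sham (5.81 ± 0.76 log2, edgeR adjusted p = 0.00084). Both were above sham throughout and, with Igf1 and Nrp2, called with either sham library alone. Matrix genes split by enzyme. Of 25, 9 rose and 3 fell, where 12.2% of all genes rose and 15% fell. Mmp12, the macrophage elastase, ranged from 21.6 to 3110 CPM, with a median of 63.5, against 0.18 and 0.46 CPM in sham (8.94 ± 0.68 log2, edgeR adjusted p = 8.04e-05). Mmp14, a membrane-bound collagenase, ranged from 117 to 417 CPM, with a median of 340.2, against 0.67 and 2.95 CPM in sham (7.34 ± 0.62 log2, edgeR adjusted p = 0.000125). Mmp9, the gelatinase stored by neutrophils, had 6.2 to 1341 CPM with a median of 188 after stroke, against 4775 and 3964 CPM in sham (-4.61 ± 0.72 log2, edgeR adjusted p = 0.00185, and 0.0554 without sham 1). Mmp8, the neutrophil collagenase, was lower in 12 of 12 at the edge of the threshold (-2.76 ± 0.90 log2, edgeR adjusted p = 0.0452), and lost the call in 19 of 31 alternatives, among them no replicate block (0.0613). The neutrophil marker sum, to which both belong, was below sham in 12 of 12 stroke libraries, and its relation to these falls was not tested.

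More adhesion genes fell than rose: of 22 integrins and adhesion genes, 4 rose, 9 fell and 9 did not pass (median -0.83 log2). Ptprc, which encodes the leukocyte antigen CD45, had 247 to 755 CPM with a median of 502 after stroke, against 2331 and 3403 CPM in sham (-2.61 ± 0.27 log2, edgeR adjusted p = 0.000316). It separated every stroke library from sham and was called with either sham library alone. Microglia are known to carry less CD45 than blood leukocytes, and the part of cell content in this fall was not tested. Among 25 genes of the CSF1 axis and myeloid lineage, 5 rose and 5 fell, near the 12.2% and 15% of all genes. Maf and Bhlhe41, factors of tissue macrophages, were among those that rose, and Cebpd, Cebpb, Spi1, Tfeb and Csf3r fell. Csf3r, the granulocyte colony-stimulating factor receptor, had 115 to 1518 CPM with a median of 156 after stroke, against 3806 and 2518 CPM in sham (-3.62 ± 0.47 log2, edgeR adjusted p = 0.000829).

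Most marker genes of neutrophils, monocytes, platelets and red cells were lower in the stroke libraries. Of 15 neutrophil markers 8 fell, of 18 monocyte markers 10 fell, of 4 erythroid markers 3 fell and of 8 platelet markers 7 fell, and none of these lists held a gene called higher, where 12.2% of all genes were called higher and 15% lower. S100a8, a calgranulin abundant in neutrophils, had 5.57 to 1301 CPM with a median of 111 after stroke, against 3397 and 12210 CPM in sham (-5.40 ± 0.93 log2, edgeR adjusted p = 0.00281, and 0.0908 without sham 2). Hp, haptoglobin, had 14 to 579.5 CPM with a median of 138, against 2124 and 3235 CPM in sham (-4.33 ± 0.73 log2, edgeR adjusted p = 0.0025, and 0.0818 without sham 2). Alas2, the heme synthesis enzyme of red cell precursors, had 0 to 4.37 CPM with a median of 0.17, against 181 and 244 CPM in sham (-10.19 ± 0.88 log2, edgeR adjusted p = 0.000148). None of these genes reached sham in any stroke library. Other neutrophil granule genes did not pass and stood higher in some libraries. Mpo, myeloperoxidase, had 334 and 346 CPM at day 90 and 78.0 CPM in day 21 replicate 1, against 3.09 and 0.38 CPM in sham (3.26 ± 1.41 log2, edgeR adjusted p = 0.112). Elane, neutrophil elastase, had 99.6 and 108 CPM at day 90, against 1.64 and 0.70 CPM in sham (2.40 ± 1.17 log2, edgeR adjusted p = 0.153). Ltf, lactoferrin, had 933 and 1277 CPM at day 90, against 203 and 312 CPM in sham, and Ngp, a neutrophil granule protein, had 1186 and 781 CPM at day 90, against 284 and 354 CPM in sham, although both were below sham in 9 of 12 differences. Itga2b, the platelet integrin chain, had 0 to 1.98 CPM with a median of 0.25, against 30.4 and 33.3 CPM in sham (-7.06 ± 0.94 log2, edgeR adjusted p = 0.000926). The platelet sum was less uniform, at 3.23 to 1161 CPM with a median of 48.8 after stroke against 107 and 104 CPM in sham, and the 4 libraries of days 1 and 3 lay above both. Pf4, a platelet chemokine also made by macrophages, made up most of it in those libraries and did not pass (2.41 ± 0.85 log2, edgeR adjusted p = 0.0580). Of 12 B cell markers 9 were called lower, but their sum lay below both sham libraries in 8 stroke libraries and above both in 4, those of days 60 and 90. Fcer2a, the low-affinity IgE receptor of B cells, was the B cell gene both called and lower in 12 of 12.

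Markers of other brain macrophages and of neural cells gave mixed counts. Of 14 genes of border-associated macrophages, 9 rose and 1 fell. Ms4a7, a gene of these cells, ranged from 54.5 to 2591 CPM, with a median of 727, against 3.03 and 9.74 CPM in sham (6.55 ± 1.12 log2, edgeR adjusted p = 0.00281), and Mrc1, Ms4a7, Stab1 and Cd38 kept the call with either sham library. The summed level of the list was less clear, at 651 to 3525 CPM with a median of 2103 after stroke against 1375 and 992 CPM in sham, above both in 9 of 12. Of 12 endothelial genes 4 rose and 1 fell, of 9 astrocyte genes 2 rose, of 8 tested oligodendrocyte genes 2 rose and 1 fell, of 9 neuronal genes 1 fell, and of 12 dendritic cell genes 4 rose, where 12.2% of all genes rose and 15% fell. The dendritic cell sum lay above both sham libraries in 12 of 12, at 527 to 1920 CPM after stroke against 261 and 389 CPM in sham. Of its 12 genes, 6 are also in other lists, among them Siglech, a microglia-defining gene. The oligodendrocyte sum lay below both in 12 of 12, at 129 to 274 CPM after stroke against 614 and 315 CPM in sham. Mbp alone gave 539 and 239 CPM of these sham sums. The median fold change of the 8 tested oligodendrocyte genes was 1.45 log2, so the lower sum does not describe the list. The endothelial sum differed between the sham libraries themselves, at 25.0 to 336 CPM after stroke against 53.9 CPM in sham 1 and 1797 CPM in sham 2. Mbp, the myelin basic protein gene, had 28.5 to 153 CPM with a median of 50.7, against 539 and 239 CPM in sham (-2.50 ± 0.41 log2, edgeR adjusted p = 0.00238, and 0.0792 without sham 1). Gfap, which marks astrocytes, did not pass (-0.05 log2, edgeR adjusted p = 0.997).

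Housekeeping machinery served as a contrast. Of 43 oxidative phosphorylation genes, none rose, 1 fell and 42 did not pass (median -0.10 log2), and of 56 cytosolic ribosomal proteins, 1 rose, 3 fell and 52 did not pass (median -0.31 log2). Of 31 proteasome subunits, 5 rose and none fell (median 0.36 log2), where 12.2% of all genes rose and 15% fell. Without day 1 replicate 2 and day 21 replicate 1, 8 rose, where 2723 of all 13973 genes tested rose. Of 23 genes of the unfolded protein response, 12 did not pass, 8 were higher, namely Calr, Canx, Hsp90b1, Pdia3, Pdia4, Pdia6, Sdf2l1 and Creld2, and 3 were lower, Eif2ak3, Dnajb9 and Ddit3. Pdia4, a protein disulfide isomerase, ranged from 133 to 370.5 CPM, with a median of 218, against 63.5 and 76.8 CPM in sham (1.58 ± 0.28 log2, edgeR adjusted p = 0.0034, and 0.0654 without sham 1). Eif2ak3, the stress sensor PERK, had 8.32 to 33.1 CPM with a median of 20, against 102 and 62.3 CPM in sham (-2.13 ± 0.35 log2, edgeR adjusted p = 0.00215, and 0.0945 without sham 1). No gene of the ribosomal, proteasome, oxidative phosphorylation or unfolded protein lists was called with either sham library alone.

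**Figure D4:**
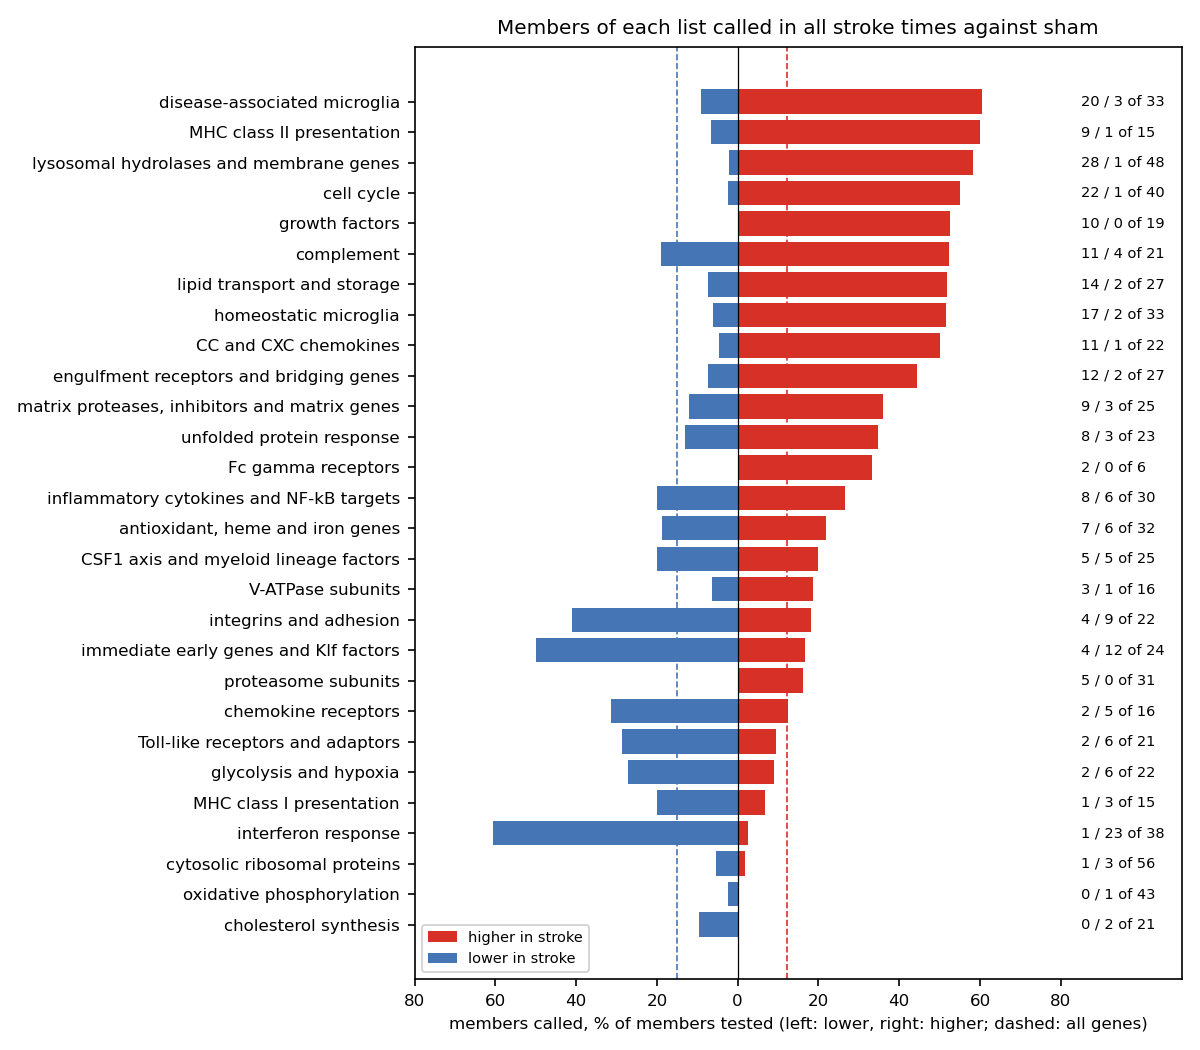
Share of members (% of those tested) called higher (bars to the right) and lower (bars to the left) in the test of all stroke times against sham, for each pathway list, with the counts at the right edge and the shares of all genes, 12.2% and 15%, as dashed lines. The lysosomal list has 28 higher and 1 lower of 48 and the interferon list 1 higher and 23 lower of 38.

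Same-direction genes differed in how steady their distance from sham was. Sf3b2, a splicing factor, was among the steadiest, with 160.2 to 230.3 CPM and a median of 185 after stroke, against 293 and 309 CPM in sham, and 12 differences between 0.42 and 0.87 log2 below sham. The change was small (-0.69 ± 0.21 log2, edgeR adjusted p = 0.0346) and the adjusted p reached 0.0973 without a stroke library. P2ry6, the UDP receptor that triggers phagocytosis by microglia, ranged from 74.1 to 242 CPM, with a median of 136, against 49.5 and 27.8 CPM in sham, and its differences lay between 1.42 and 2.29 log2 above sham (1.88 ± 0.34 log2, edgeR adjusted p = 0.0038, and 0.0631 without sham 2). At the other end, the differences of Mmp12 ran from 5.65 to 13.45 log2 and those of Atp6v0d2 from 1.23 to 15.26 log2. In all, 184 genes differed among the 6 stroke times (1.33% of genes tested), of which 30 were higher and 14 lower same-direction genes. The share was 1.38% among same-direction genes and 1.31% among the others, a difference that was not tested. This count moved with the libraries: it was 16 without day 90 and 360 without day 21, 1092 without day 1 replicate 2 and day 21 replicate 1, and 120 without the replicate block. DESeq2 called 2089 genes in the same comparison.

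**Figure D5:**
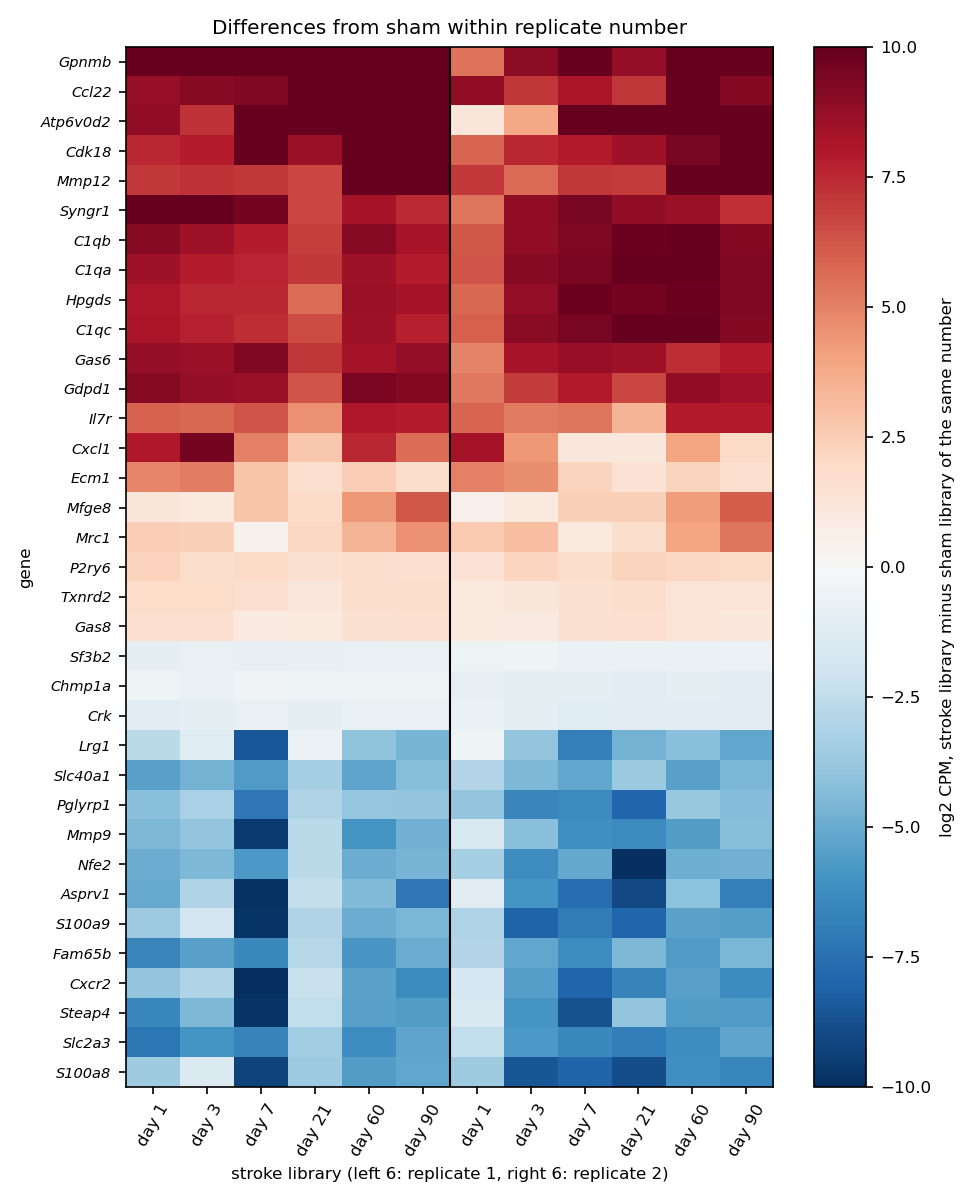
Log2 difference of each of the 12 stroke libraries from the sham library of the same replicate number (columns, by time) for 35 same-direction genes (rows), with the colour scale cut at -10 and 10. Every row keeps 1 colour across the 12 columns, palest in day 1 replicate 2 for many of the higher genes.

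Median distances from sham were listed by time. The higher genes had medians of 2.03, 2.35, 2.46, 2.18, 2.24 and 2.29 log2 at days 1, 3, 7, 21, 60 and 90, and the lower genes -1.52, -1.83, -1.94, -1.55, -1.74 and -1.66 log2. These contrasts share the sham libraries. Tested singly against sham, the days called 5.13%, 8.04%, 10.6%, 7.39%, 7.99% and 8.37% of all genes higher and 3.49%, 6.41%, 9.32%, 4.03%, 6.1% and 6.1% lower; 333 of the higher and 152 of the lower genes were called at each of the 6 times, and 58 and 375 at none. Day 7 was the time farthest from sham for 31.1% of the higher and 32.3% of the lower genes. The stroke difference was also compared between replicate numbers, since each holds 1 sham library: the interaction was called in 0 genes, with 306 genes (2.21%) at an unadjusted p under 0.05 and a smallest adjusted p of 0.993 in edgeR, 5 genes called in DESeq2 and 0 in limma-voom.

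A few calls came from sham replicate 2 alone. Matn1, a cartilage matrix gene, had 0 to 0.14 CPM after stroke, against 0 CPM in sham 1 and 85.4 CPM in sham 2. Ceacam2 and Gm14085 had 0.06 to 36.7 and 0 to 50.2 CPM after stroke, against 0 CPM in sham 1 and 273 and 480.5 CPM in sham 2. Their fitted fold changes reversed without sham 2 where a value could be had, and Ceacam2 shares 46.2% of its 50-base words with Ceacam1 and Gm14085 30.4% with Slc28a2. Cd209f, a lectin of perivascular macrophages, and Mal, a myelin proteolipid, had no read in sham. After stroke they ranged from 0.15 to 9.95 CPM and from 0.08 to 1.8 CPM. Their means over the stroke libraries were at least 84.4-fold and 19.2-fold above the floor of 3 counts.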

How the data were processed

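RNA was measured in 14 libraries of sorted cortical cells. Gene counts are the authors' deposited raw read counts, made with Bowtie2 2.3.4.2 and HTSeq 0.6.1 on mouse build mm9 per the submitters' processing notes; the strand setting is not given in the sources used here, so antisense and overlapping genes cannot be told apart. All 14 columns were mapped to samples by name, M1 and M2 being read as replicates 1 and 2, and 0 columns were left unmapped.

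From these counts, 223 of 14084 genes were removed by edgeR's expression filter and 13861 were fitted with edgeR 4.0.16 in R 4.3.3 (TMM factors, robust quasi-likelihood, a mean for each of 7 groups, replicate number as a block, 6 residual degrees of freedom, common biological coefficient of variation 0.514). Alternatives used DESeq2 1.42.0 and limma 3.58.1. The programs were tested on simulated data. Differences by library used log2 CPM with a prior count of 2, and all CPM are on the TMM scale. A count of 0 allows up to 3 counts, which is 0.0826 to 0.197 CPM in replicate 1 and 0.0150 to 0.0357 CPM in replicate 2; floors cover counting error only.

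Whether replicate numbers pair the libraries was checked by correlating deviations from group means: r was over 0.1 in 20 of 21 pairs of groups (0.07 to 0.68), and no label ties equal numbers to a shared day or animal. The block was used because the comparison was posed with it. No 2 replicates agreed within sampling noise.

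The comparison, the gene lists and the tests were chosen with earlier results of these data known. Genes were named by rule: the largest changes, the most abundant, up to 4 same-direction members of each list and up to 2 that went against it, the steadiest and most variable over time, and a set panel; other list members were named after their values were seen, and some genes that the rule names are not reported here. Libraries were left out in turn, and normalization, filter, tool and block were varied. Promoter sequences are from RefSeq on GRCm38.p6, and shared words and exonic overlaps of named genes from GENCODE transcripts of GRCm38, a later build than the counts.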

Additional observations from a re-analysis of the deposited data

Results flagged for a closer look

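Among the genes named in the report, 18 differed among the 6 stroke times by edgeR's joint test. Mean levels in stroke libraries at days 1, 3, 7, 21, 60 and 90 are followed by the mean of the sham libraries, in CPM.

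Of the genes above sham, several were highest at days 60 and 90. Mfge8, the bridge to dying cells, averaged 25.5, 27.4, 83.4, 64.2, 272 and 969.8 CPM, against 14.1 CPM in sham (edgeR adjusted p = 0.000411). Mmp12, the macrophage elastase, averaged 46.7, 27.8, 46.2, 41.8, 2713 and 2577 CPM, against 0.32 CPM in sham (edgeR adjusted p = 0.000411). Mrc1, the mannose receptor, averaged 48.1, 54.4, 13.2, 31.8, 105 and 264 CPM, against 8.24 CPM in sham (edgeR adjusted p = 0.00355). Il7r, the interleukin 7 receptor, averaged 37.3, 30.3, 40, 11.8, 160.1 and 155 CPM, against 0.62 CPM in sham (edgeR adjusted p = 0.00522). Cd4 averaged 1.44, 1.04, 15, 9.57, 18.4 and 30.8 CPM, against 0.90 CPM in sham (edgeR adjusted p = 0.017). H2-M2, a class I gene, averaged 0.20, 0.27, 0.79, 6.03, 50.1 and 89.5 CPM, against 0 CPM in sham (edgeR adjusted p = 0.0266). Cdk18, a cyclin-dependent kinase, averaged 5.04, 11.7, 30.2, 21.7, 83.7 and 136 CPM, against 0.04 CPM in sham (edgeR adjusted p = 0.0293). Atp6v0d2, the proton pump subunit, averaged 5.83, 2.52, 172, 68.6, 809.8 and 876 CPM, against 0.04 CPM in sham (edgeR adjusted p = 0.0443).

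Others with a mean above sham over all stroke times were highest at an earlier time. Ecm1, extracellular matrix protein 1, averaged 1324, 1225, 234, 122, 213 and 134 CPM, against 42.0 CPM in sham (edgeR adjusted p = 0.00249). Ier3, an early stress gene, averaged 1401, 1076, 113, 241, 189 and 42.7 CPM, against 89.9 CPM in sham (edgeR adjusted p = 0.00635), so that day 90 stood below the sham mean. Tnf averaged 1089, 1328, 184, 339, 432 and 78.5 CPM, against 27.9 CPM in sham (edgeR adjusted p = 0.0407). Il12b averaged 0.86, 3.10, 2.40, 17.9, 11.1 and 5.34 CPM, against 0.01 CPM in sham (edgeR adjusted p = 0.0262).

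Genes called lower than sham also varied. Il1b averaged 8800.2, 7538, 394, 2206, 3102 and 1251 CPM, against 6691 CPM in sham (edgeR adjusted p = 0.0368), so that days 1 and 3 stood above the sham mean. Egr1 averaged 1234, 894, 452, 1272, 149 and 182 CPM, against 2700.2 CPM in sham (edgeR adjusted p = 0.0246). Ccr3 averaged 1.71, 1.86, 0.57, 2.01, 7.87 and 3.34 CPM, against 44.0 CPM in sham (edgeR adjusted p = 0.048). The B cell genes Ms4a1 (0.46, 0.14, 0.35, 8.02, 23.9 and 51.5 CPM, against 28.8 CPM in sham, edgeR adjusted p = 0.00487) and Cd79a (0.97, 0.48, 0.55, 12.8, 80.7 and 77.1 CPM, against 50.2 CPM in sham, edgeR adjusted p = 0.00522) were above the sham mean at day 90. Cd79a was also above it at day 60. Fcer2a, the B cell IgE receptor, averaged 0.06, 0.07, 0.15, 4.54, 10.1 and 11.7 CPM, against 17.7 CPM in sham (edgeR adjusted p = 0.0143).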

How the results depend on the processing

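Sign and call of the named genes held in 5450 of 5973 gene values over all alternatives, 515 kept the sign and lost the call and 5 gained it; 3 turned sign, all without sham replicate 2 (Ceacam2 at 6.40, Gm14085 at 4.77 and Csf1r at -0.32 log2; with 1 library left out they ran from -3.88, -5.06 and -0.32 to 6.40, 4.77 and 1.24 log2). Called genes numbered 3768, but 1378 with a minimum fold change of 2, 5699 without day 1 replicate 2 and day 21 replicate 1, and 953 to 4838 with 1 library left out. Same-direction genes numbered 3184, but 1300 with that minimum fold change, 1149 where every difference had to reach 1 log2 unit, 4648 without day 1 replicate 2 and day 21 replicate 1, and 946 to 4152 with 1 library left out, the lowest without sham replicate 2. Genes differing among times numbered 184, but 120 with no replicate block, 2089 in DESeq2, 290 in limma-voom, 68 without day 7, 360 without day 21, 44 without day 60, 16 without day 90, 1092 without day 1 replicate 2 and day 21 replicate 1, and 16 to 711 with 1 library left out. The interaction with replicate number was called in 5 genes by DESeq2 and could not be fitted without a sham library. With no replicate block, 2749 genes were called and 2156 were same-direction, there taken as 1 sign against both sham libraries. With libraries left out, the same-direction counts rest on the differences that remained. Upper-quartile factors moved the median of all genes by 0.14 log2 and the higher share of called genes to 53.0%, from 44.8% with TMM. What set these changes was not tested. Replicate 1, shallower by 6.60 to 9.19 times, limits genes of few counts.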
